A study of Homo sapiens with 4 samples.

Results

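The transcripts of 10 genes that mark the naive state of pluripotency were followed in the established human embryonic stem cell line H9, among 60671 genes with a measured level. The genes were ZFP42 (rex1), DPPA5, DPPA3, KLF2, KLF4, KLF5, KLF17, TFCP2L1, ESRRB and TBX3, taken by gene name. No measured value enters the rule. Each name occurred in 1 row. Levels are in TPM, a share of each library corrected for transcript length, so that genes can be compared with each other inside a library.

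RNA was measured in 4 libraries, 2 of control H9 cells and 2 of H9 cells in which the gene for CFIm25 was edited and 3Flag-tagged CFIm25 was expressed from a transgene (KO+OE). CFIm25, encoded by NUDT21, is a subunit of the cleavage factor that acts on the 3′ ends of mRNAs. Both groups grew in mTeSR, a defined medium for human embryonic stem cells, and received no further treatment. The study describes edited lines grown from single cells and a lentiviral transgene under the EF1 promoter put into 1 such line, so that clone and edit cannot be told apart. The labels do not say whether the control cells carried the empty CRISPR vector, and knockout and knockdown are both used for the edit. For its re-expression RNA-seq the study names mock control cells, and it describes its mock controls as clones given the empty vector. It describes the edited lines as knockdown clones that make CFIm25 with a small N-terminal deletion. Nothing says that the libraries of a group came from separate cultures, so p-values measure only the spread between these samples, which may be technical. NUDT21 stood at 160.67 and 152.2 TPM in control against 162.09 and 156.6 TPM in KO+OE (log2 difference 0.03, 95% confidence interval -0.09 to 0.14, limma adjusted p = 0.98). Transgene and endogenous mRNA share the coding sequence, so this level does not check the labels.

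Human embryonic stem cells in such media are usually in the primed state, which resembles the epiblast after implantation, whereas the naive state resembles the epiblast before it. Both states need the core factors OCT4 (POU5F1), SOX2 and NANOG. The naive state adds a set of transcription factors, among them Krüppel-like factors, TFCP2L1 and, in the mouse, ESRRB and TBX3, several of which act downstream of the LIF and STAT3 pathway. In human naive cells KLF17, DPPA5 and DPPA3 are used as markers, while ZFP42, a zinc finger relative of YY1, also marks undifferentiated cells in general. The cell label was checked with the core and primed-associated genes. OCT4 mRNA lay between 2163.82 and 2212.38 TPM, NANOG between 15.85 and 19.89 TPM and SOX2 between 18.19 and 19.36 TPM. The measurement was of whole cultures, in which fewer cells of a type and less RNA per cell cannot be told apart.

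ZFP42 and DPPA5 are also RT-qPCR targets of the study, and the primers are given to show which piece of each transcript they read. Forward primers match the mRNA as written and reverse primers match it as reverse complement.
ZFP42 forward: tgggaaagcgttcgttgaga
ZFP42 reverse: cacccttcaaaagtgcaccg
DPPA5 forward: actctcccggcacgtagac
DPPA5 reverse: agggattcgagatccgtccg
The ZFP42 pair lay in the coding part of exon 4 of 4, at bases 1074 to 1093 and 1144 to 1163 of the transcript, and spanned 90 bases. The DPPA5 pair lay in coding sequence of exon 1 and exon 2 of 3, at bases 58 to 76 and 167 to 186, and spanned 129 bases. The RNA-seq level counts reads from the whole transcript, which is 2647 bases long for ZFP42 and 659 bases long for DPPA5.

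Promoter sequence was available for 9 of the 10 genes, TBX3 being the one without, and is shown for 4 that differ in CpG content and in level. The 250 bases before the transcription start are from RefSeq on GRCh38.p14 and are written along the strand of the gene, with each CpG in capitals, the dinucleotide at which DNA is methylated.
ZFP42, chr4:187995521-187995770, + strand: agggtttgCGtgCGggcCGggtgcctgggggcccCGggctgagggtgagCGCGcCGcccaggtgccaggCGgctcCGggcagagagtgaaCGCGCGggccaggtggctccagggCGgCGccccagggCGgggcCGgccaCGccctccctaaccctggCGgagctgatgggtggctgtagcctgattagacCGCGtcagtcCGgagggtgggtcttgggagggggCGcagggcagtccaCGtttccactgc
DPPA5, chr6:73354277-73354526, - strand: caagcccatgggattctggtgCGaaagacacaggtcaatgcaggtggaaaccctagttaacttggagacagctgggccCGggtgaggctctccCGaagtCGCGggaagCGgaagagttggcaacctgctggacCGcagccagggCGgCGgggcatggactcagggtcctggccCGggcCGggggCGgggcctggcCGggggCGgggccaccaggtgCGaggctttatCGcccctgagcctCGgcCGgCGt
ESRRB, chr14:76310527-76310776, + strand: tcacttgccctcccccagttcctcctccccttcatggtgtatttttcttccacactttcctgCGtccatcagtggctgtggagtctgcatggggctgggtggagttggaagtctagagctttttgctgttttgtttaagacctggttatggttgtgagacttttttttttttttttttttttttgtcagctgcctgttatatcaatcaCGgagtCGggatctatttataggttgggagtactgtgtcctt
DPPA3, chr12:7711183-7711432, + strand: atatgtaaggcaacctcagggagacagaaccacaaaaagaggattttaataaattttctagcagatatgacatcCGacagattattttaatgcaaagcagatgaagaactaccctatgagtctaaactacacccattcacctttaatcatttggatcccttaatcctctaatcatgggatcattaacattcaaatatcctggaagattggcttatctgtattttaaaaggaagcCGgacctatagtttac
The window of ZFP42 was 74.4% G and C and held 23 CpG, and that of DPPA5 was 68.8% and held 19. The first of the 3 ESRRB windows was 44.4% and held 3 CpG, and the DPPA3 window was 35.6% and held 2. A window is called CpG-rich here when at least 50% of it is G or C and its CpG count is at least 0.6 of that given by its C and G content. ZFP42, DPPA5, KLF2, KLF4 and TFCP2L1 had CpG-rich windows only, DPPA3, ESRRB and KLF17 had none, and KLF5 had 1 of each kind.

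The levels of the naive-state genes are set beside those of all genes of the same promoter class. Among protein-coding genes with 1 window, 71.1% of 6938 with a CpG-rich window had a mean of at least 1 TPM (median 4.215 TPM), against 25.3% of 4192 with another window (median 0.05 TPM). All 5 naive-state genes with CpG-rich windows only had means under 1 TPM. ESRRB, with 3 windows none of which was CpG-rich, was the one gene of the 10 with a mean above 1 TPM. These are counts over few genes, and which start site the cells used was not measured. Searched on both strands, the octamer ATGCAAAT, which OCT4 can bind, was in 0 of the 12 windows and in 1.6% of all windows of this length. The GC box GGGCGG was in 7 of the 12 and in 42.6% of all, and the letters CCACCC, a core of sites for Krüppel-like factors, were in 4 of the 12 and in 31.3% of all. The TATA letters TATAAA were in 2 of the 12, 1 window each of ESRRB and KLF5, and in 10.7% of all. A match is a stretch of letters and not a shown binding site.

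The naive-state genes were low in all 4 libraries. Only ESRRB reached a mean of 1 TPM, while 54.4% of 19855 protein-coding genes did. Summed over the 10 genes, the level was 3.89 and 4.49 TPM in control against 5.14 and 4.35 TPM in KO+OE. The median of their means was 0.339 TPM, against 1.455 TPM over all protein-coding genes. Values were deposited to 0.01 TPM, so the lowest of them rest on few steps of that rounding.

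**Figure D1:**
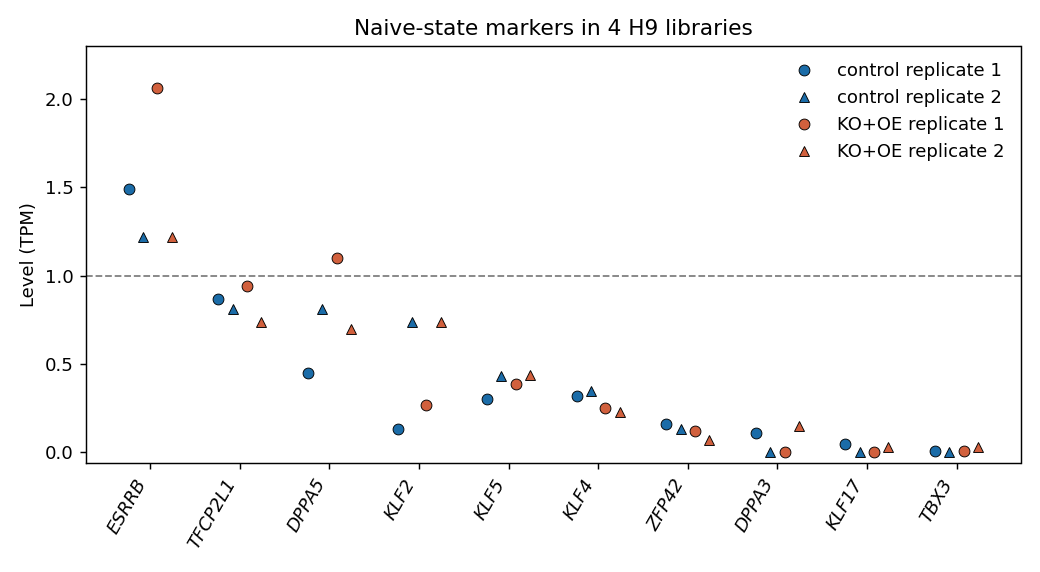
Level in TPM (linear axis) of the 10 naive-state genes in each of the 4 libraries, ordered by mean. Circles are replicate 1 and triangles replicate 2, blue for control and orange for KO+OE, and the dashed line marks 1 TPM. ESRRB lies above the line in all 4 libraries, between 1.22 and 2.06 TPM, and DPPA5 in 1 library.

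Of the 10 genes ESRRB (ENSG00000119715, chr14:76310777-76501837), an orphan nuclear receptor that sustains self-renewal of mouse embryonic stem cells, was highest. It stood at 1.49 and 1.22 TPM in control against 2.06 and 1.22 TPM in KO+OE. The second library of each group held the same value, and the groups overlapped. In each of the 4 libraries ESRRB lay above all values of the other 9 genes, and 50.3% of protein-coding genes had a lower mean.

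TFCP2L1 (ENSG00000115112, chr2:121216587-121285202), a grainyhead-type factor that STAT3 activates in mouse embryonic stem cells, had 0.87 and 0.81 TPM in control against 0.94 and 0.74 TPM in KO+OE. Both control values lay between the 2 KO+OE values. Means of the groups were 0.84 ± 0.0424 TPM in control against 0.84 ± 0.141 TPM in KO+OE (n = 2 each, SD). TBX3 (ENSG00000135111, chr12:114670255-114684175), a T-box factor that sustains self-renewal of mouse embryonic stem cells, was listed at 0.01 and 0 TPM in control against 0.01 and 0.03 TPM in KO+OE. It was the lowest of the 10, with 16.7% of protein-coding genes at a lower mean.

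The 4 Krüppel-like factors share a zinc finger domain that binds CACCC-type sequences, and KLF2, KLF4 and KLF5 act redundantly in mouse embryonic stem cells. KLF2 (ENSG00000127528, chr19:16324826-16328685) had 0.13 and 0.74 TPM in control against 0.27 and 0.74 TPM in KO+OE. Replicate 1 was low and replicate 2 high in both groups, and the spread inside a group exceeded the difference between groups. KLF5 (ENSG00000102554, chr13:73054976-73077538) had 0.30 and 0.43 TPM in control against 0.39 and 0.44 TPM in KO+OE, and the groups overlapped. KLF4 (ENSG00000136826, chr9:107484852-107489769), a reprogramming factor, had 0.32 and 0.35 TPM in control against 0.25 and 0.23 TPM in KO+OE, so both KO+OE values lay below both control values. KLF17 (ENSG00000171872, chr1:44043927-44135140), which marks the human but not the mouse naive state, was listed at 0.05 and 0 TPM in control against 0 and 0.03 TPM in KO+OE.

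ZFP42 (ENSG00000179059, chr4:187995771-188005246) had 0.16 and 0.13 TPM in control against 0.12 and 0.07 TPM in KO+OE. Both KO+OE values lay below both control values, the gap between the nearest being 1 rounding step of 0.01 TPM. The study treats rex1 as a pluripotency marker and reports that its RNA fell after CFIm25 editing. From RNA-seq of re-expressing and mock control cells it also reports that most down-regulated genes were restored by re-expression. These libraries hold no edited cells without the transgene, so they show the level beside control and not the fall. The study also read rex1 RNA in its own control H9 cells by mRNA-seq and RT-qPCR, and reports low rex1 RNA in differentiated cells. Why ZFP42 stood this low in the control cells here, beside those measurements, was not tested. DPPA5 (ENSG00000203909, chr6:73353063-73354276), an RNA-binding protein with a KH domain, had 0.45 and 0.81 TPM in control against 1.10 and 0.70 TPM in KO+OE. The lowest value was a control and the highest a KO+OE library, and the groups overlapped. DPPA3 (ENSG00000187569, chr12:7711433-7717559), also named STELLA, which protects maternal DNA methylation marks in the zygote, was listed at 0.11 and 0 TPM in control against 0 and 0.15 TPM in KO+OE.

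A listed 0 does not show absence in these data. EXOSC6, a subunit of the RNA exosome that every cell uses, chosen after its values were seen, was listed at 0.22 and 0.37 TPM in control against 0 in both KO+OE libraries. No fold change is therefore given for DPPA3, KLF17 and TBX3.

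By mean level the order was ESRRB, TFCP2L1, DPPA5, KLF2, KLF5, KLF4, ZFP42, DPPA3, KLF17 and TBX3. Neighbours were apart in all 4 libraries at 2 places, between ESRRB and TFCP2L1 and between KLF4 and ZFP42. All other neighbours overlapped over the 4 libraries. KLF2 overlapped widely and lay wholly above 2 genes only, KLF17 and TBX3, while TFCP2L1 and DPPA5 each lay wholly above 6.

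The comparison of control with KO+OE asks how close the level of each marker is in cells that make CFIm25 from the transgene. None of the 10 genes was called. In limma on log2(TPM + 1), with Benjamini-Hochberg adjustment over the 12319 genes whose mean reached 1 TPM, 1 gene passed an adjusted p of 0.05 (0.00812%). At an unadjusted p of 0.05 there were 656 (5.33%), of which 53 (0.43% of those tested) also differed by over 2-fold. ESRRB was the one member in this fit, with a log2 difference of 0.15 (SE 0.224, 95% confidence interval -0.43 to 0.73, limma adjusted p = 0.976). Its sign turned to -0.08 without KO+OE replicate 1, the library with the highest value.

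The other 9 genes lie under 1 TPM and were read from the same fit without a filter, over 26942 genes, of which 0 passed an adjusted p of 0.05 (0.0%), 1314 had an unadjusted p under 0.05 (4.88%) and 51 of those exceeded 2-fold (0.189%). None of the 10 genes passed any of these thresholds, the lowest limma adjusted p among them being 0.873. DPPA5 had the largest difference, 0.22 with a 95% confidence interval from -0.36 to 0.80. KLF4 had -0.11 (-0.32 to 0.10) and ZFP42 -0.06 (-0.21 to 0.08). KLF2 had 0.08 with the widest interval, -0.74 to 0.91. KLF5 had 0.05 (-0.24 to 0.34) and TFCP2L1 -0.002 (-0.43 to 0.43).

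On this scale a pseudocount of 1 TPM exceeds most of these levels and draws their differences towards 0. With a pseudocount of 0.1 TPM the intervals were wider, and the differences were -0.34 for ZFP42 (-1.29 to 0.62), -0.36 for KLF4 (-1.35 to 0.63) and 0.47 for DPPA5 (-0.76 to 1.70). That of KLF2, -2.07 to 2.75, was the widest of the 7, and all 7 included 0 with either pseudocount.

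**Figure D2:**
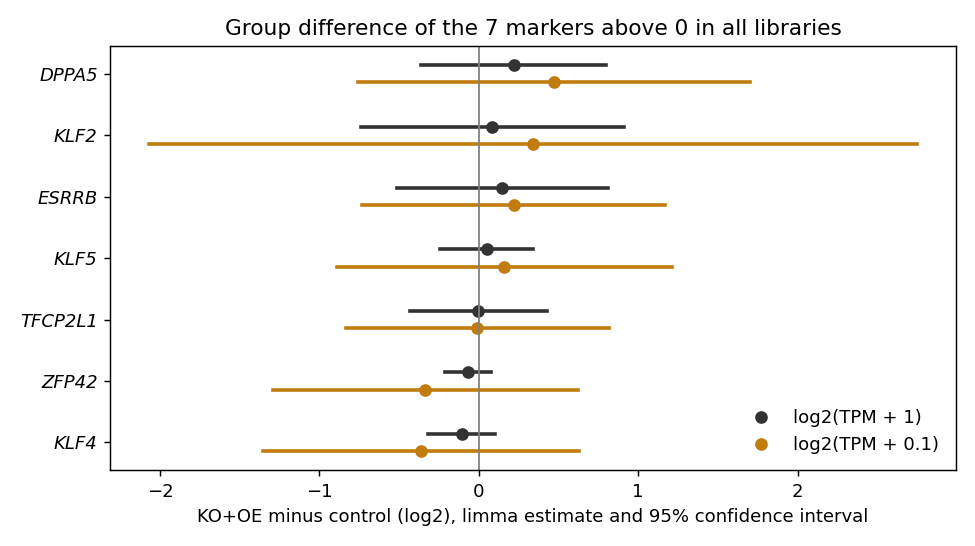
Estimated difference KO+OE minus control on the log2 scale, from limma without a filter, for the 7 naive-state genes above 0 in all 4 libraries. Points are estimates and lines 95% confidence intervals, dark for log2(TPM + 1) and ochre for log2(TPM + 0.1), and every interval includes 0.

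Counted by overlap, both KO+OE values were below both control values for 2 of the 10 genes, ZFP42 and KLF4, and above for 0. Of the 9599 genes with a mean from 0.05 to 1 TPM, 15.0% were wholly lower in KO+OE, 13.0% wholly higher and 28.0% either. Over all 26942 genes above 0 in at least 1 library 27.8% did not overlap. With 2 libraries against 2 the smallest p of an exact two-sided permutation test is 0.333, so such a test cannot reach 0.05. The 7 genes above 0 in all libraries split into 4 with a higher and 3 with a lower estimate, and their median difference was 0.05 on the log2(TPM + 1) scale, where the median of the 26942 genes was -0.01.

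The spread at these levels was large throughout the table. On log2(TPM + 0.1) the 2 control libraries differed by a median of 0.585 for genes from 0.05 to 0.2 TPM, the range of ZFP42 and DPPA3, and by 0.495 from 0.2 to 1 TPM, the range of KLF4, KLF5, KLF2, DPPA5 and TFCP2L1. For genes from 1 to 5 TPM the median was 0.269 and for those of at least 5 TPM it was 0.085. Under 0.05 TPM, where KLF17 and TBX3 lie, it was 0.263, but there the added 0.1 TPM exceeds the mean level and shrinks the differences. Depth is unknown, because the table holds no counts.

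**Figure D3:**
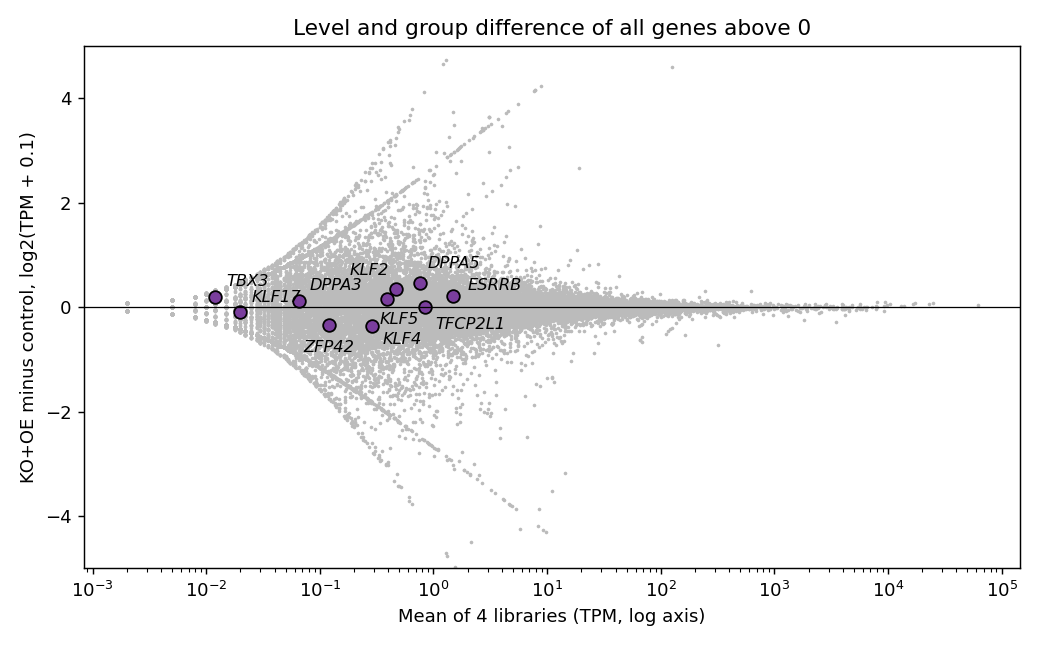
Mean level (TPM, log axis) against the difference KO+OE minus control on log2(TPM + 0.1) for all genes above 0 in at least 1 library (grey) and the 10 naive-state genes (purple), with the axis ended at 5 in each direction. The named genes lie inside the grey cloud, 7 of them with means from 0.05 to 1 TPM. DPPA3, KLF17 and TBX3 were each listed at 0 in at least 1 library, so their differences are not read.

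Some close relatives of the naive-state genes were higher than the genes themselves. Of the 18 Krüppel-like factors, 9 had means of at least 1 TPM, beside 54.4% of all protein-coding genes. KLF2, KLF4, KLF5 and KLF17 were all among the other 9. KLF16, which binds GC-rich promoter sequences, was highest with 25.06 and 32.36 TPM in control against 37.89 and 31.72 TPM in KO+OE. KLF7, which had the largest difference among the 9 tested, stood at 1.09 and 1.96 TPM in control against 1.78 and 2.91 TPM in KO+OE, so the groups overlapped (log2 difference 0.41, limma adjusted p = 0.938). None of the 9 passed a p of 0.05 in limma, adjusted or not.

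**Figure D4:**
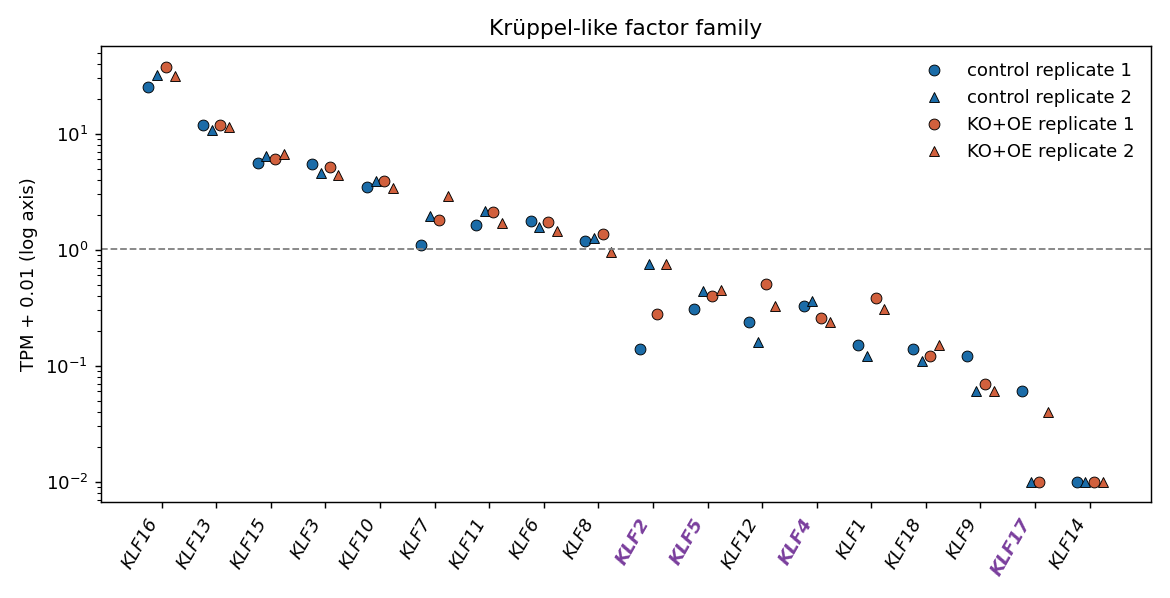
Level of the 18 Krüppel-like factors in each library as TPM + 0.01 on a log axis, ordered by mean, with the naive-state members in purple and bold on the axis. Circles are replicate 1 and triangles replicate 2, and the dashed line is at 1 TPM. The 4 members lie below it in every library, as do KLF12, KLF1, KLF18, KLF9 and KLF14, the last listed at 0 in all.

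Among 14 further relatives, 6 had a mean of at least 1 TPM, beside 54.4% of all protein-coding genes. ESRRA, the relative of ESRRB that controls mitochondrial genes, was highest of them with 32.21 and 29.99 TPM in control against 26.53 and 23.65 TPM in KO+OE, without overlap. It passed 0.05 before and not after adjustment (log2 difference -0.30, 95% confidence interval -0.51 to -0.09, limma adjusted p = 0.928), beside 5.33% of all genes tested. GRHL2, a grainyhead factor related to TFCP2L1, had the largest difference, with 1.09 and 1.43 TPM in control against 1.38 and 2.33 TPM in KO+OE (0.32, limma adjusted p = 0.942). YY1, the relative of ZFP42, lay between 5.90 and 7.56 TPM, and ESRRG did not exceed 0.08 TPM. TBX2 was listed at 0 in all libraries, and YY2 and GRHL1 averaged 0.0225 and 0.1575 TPM.

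A further 15 naive-associated genes were mostly low as well. SUSD2, TFAP2C, DPPA2 and ALPG reached a mean of 1 TPM, 2 were listed at 0 in all libraries, TRIM60 and ZNF729, and the sum lay between 19.79 and 20.55 TPM. SUSD2, a surface protein used to sort human naive cells, was highest with 5.95 and 5.74 TPM in control against 5.17 and 5.51 TPM in KO+OE. DPPA2 had the largest difference, with 3.81 and 3.22 TPM in control against 3.94 and 4.41 TPM in KO+OE (0.20, limma adjusted p = 0.942). None of the 4 passed an unadjusted p of 0.05 in limma. ALPG has near-identical relatives, ALPP among them, so the share of each is uncertain.

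The primed-associated and core genes of the same cells stood far above the naive-state genes. The 11 primed-associated genes summed to between 2413.53 and 2506.78 TPM, from 478 to 620 times the sum of the 10 naive-state genes of the same library. The 9 core pluripotency genes summed to between 3073.31 and 3105.46 TPM, from 598 to 798 times that sum. These sums rest on a few genes: THY1, a surface protein higher in primed than in naive cells, gave 1228.03 to 1352.44 TPM, and OCT4 most of the core sum. By median gene the levels were 23.918 TPM for the primed-associated and 18.738 TPM for the core genes, against 0.339 TPM for the naive-state genes.

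**Figure D5:**
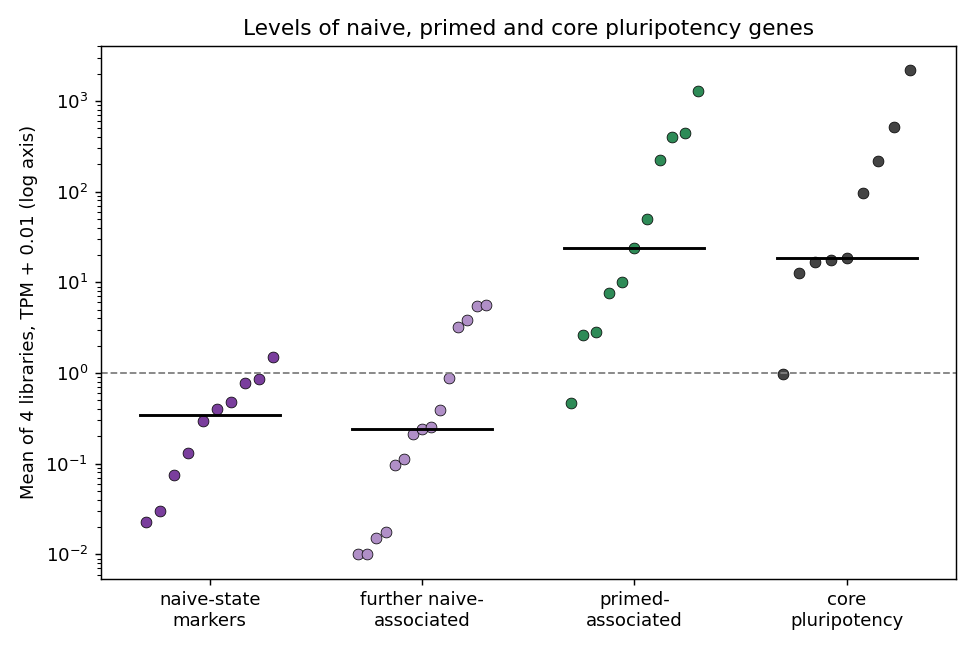
Mean of the 4 libraries for each gene of 4 lists, as TPM + 0.01 on a log axis. Each point is a gene, the black bar is the median of the list, and the dashed line is at 1 TPM. Of the naive-state genes 1 of 10 lies above the line, of the further naive-associated genes 4 of 15, of the primed-associated genes 10 of 11 and of the core genes 8 of 9.

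Of the 10 primed-associated genes tested none passed an adjusted p of 0.05, and OTX2 alone passed an unadjusted one, as did 5.33% of all genes tested. OTX2, a factor that drives the exit from the naive state, had 11.32 and 10.80 TPM in control against 8.77 and 9.17 TPM in KO+OE, without overlap (log2 difference -0.27, 95% confidence interval -0.50 to -0.05, limma adjusted p = 0.928). Of the 8 core genes tested none passed either threshold, and the largest difference was that of UTF1, with 14.51 and 12.85 TPM in control against 11.81 and 11.50 TPM in KO+OE (-0.21, limma adjusted p = 0.931). Of all genes of at least 5 TPM 20.6% were wholly lower in KO+OE, as OTX2 and UTF1 were. The median differences were 0.004 for the primed-associated and -0.006 for the core genes, beside -0.01 for all 12319 genes tested.

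The LIF and STAT3 pathway feeds the naive network in the mouse, where LIF binds its receptor LIFR with the shared subunit gp130 (IL6ST), and the kinases JAK1, JAK2 and TYK2 pass the signal to STAT3. The receptor genes were low here, LIFR at 0.11 to 0.15 TPM and IL6ST at 0.03 to 0.06 TPM. JAK2 lay between 0.02 and 0.22 TPM. STAT3 itself stood at 21.31 to 23.12 TPM, TYK2 at 32.61 to 39.58 TPM, its target SOCS3 at 11.47 to 12.36 TPM and PIM1, the highest of the 9, at 44.91 to 48.72 TPM. None of the 6 genes tested passed an unadjusted p of 0.05 in limma, and the largest difference was that of JAK1 (-0.12, limma adjusted p = 0.954), which had 2.98 and 3.31 TPM in control against 2.99 and 2.64 TPM in KO+OE.

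Markers of other cells were read beside these levels. Of 10 germ layer markers 3 had a mean of at least 1 TPM: NES, also used by stem cells, at 79.59 to 82.77 TPM, GATA6 at 4.35 to 8.39 TPM and TBX6 at 1.61 to 2.64 TPM, while SOX17 was listed at 0 in all libraries and PAX6 and TBXT did not exceed 0.32 and 0.22 TPM. The sum of the 10 lay between 88.8 and 93.28 TPM. Of 7 trophoblast markers KRT7 alone reached 1 TPM, at 17.32 to 20.61 TPM, and CGA was listed at 0 throughout; their sum lay between 17.47 and 20.72 TPM. The 5 germ cell markers summed to between 0.50 and 0.95 TPM, with DDX4 listed at 0. Of 6 fibroblast markers COL1A1, COL1A2 and PDGFRB were above 1 TPM, and LUM was listed at 0, with sums from 79.57 to 83.73 TPM. GATA6 had the largest difference among the germ layer markers (-0.28, limma adjusted p = 0.954) and PDGFRB among the fibroblast ones (0.18, limma adjusted p = 0.938). The markers that averaged at least 1 TPM (3 germ layer, 1 trophoblast and 3 fibroblast genes) were tested in limma, and none of them had an unadjusted p under 0.05. The part of these markers in the levels of the naive-state genes was not tested.

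Some of the low genes share sequence with other genes. How reads were assigned among them was not tested. DPPA3 has a copy on chromosome 14 that matched 1058 bases, or 96.2% of its transcript, at 98.5% identity and was not analysed here, so its own level is uncertain. The pseudogenes DPPA3P1, DPPA3P2 and DPPA3P3 were listed at 0 in all libraries. DPPA5 shares 219 bases at 94.5% identity with the pseudogene DPPA5P4, and KLF17 shares 658 bases at 90.9% with KLF17P1, and both pseudogenes were listed at 0 in all libraries. ZFP42 matched 12 other genes over shorter stretches, the longest 238 bases of MYT1L at 91.6%, which is 9.0% of its transcript. KLF4 matched 160 bases of 1 other gene at 99.4%. TBX3 matched 196 bases of AC026765.3 with no mismatch, a gene listed at 0.08 TPM in KO+OE replicate 2, where TBX3 was highest, and at 0 in the other libraries. KLF2, KLF5, TFCP2L1 and ESRRB had no match of at least 150 bases at 90% identity.

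GC content moved with level across the table and is given for the 10 members. The share of protein-coding genes whose mean reached 1 TPM was 35.9% for transcripts under 40% GC and 70.4% for those of at least 60% GC. DPPA3 had 40.1% GC, ZFP42 44.0%, KLF5 45.3% and DPPA5 48.4%, while KLF4 had 55.9%, ESRRB 57.9% and KLF2 61.2%. Between these lay TFCP2L1 with 50% and the lowest genes of the 10, KLF17 with 50.9% and TBX3 with 52.5%. The low receptor genes LIFR and IL6ST had 37.1% and 36.5%. The part of GC content in these levels was not tested.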

How the data were processed

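Poly(A) RNA of 4 H9 libraries was sequenced on a NovaSeq with paired reads. The submitters' processing notes name hg38, HISAT2, featureCounts, Subread and DESeq2 without versions, and whether counting used strand is not given in the sources used here. The authors deposited 1 table without a named unit, which was read as TPM because each column sums to between 986853 and 987078. It held 0 other per-sample columns. Depth and counting error are unknown, as whole reads could not be recovered.

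Groups came from the titles. The groups were compared with limma 3.58.1 in R 4.3.3 (eBayes with trend, two-sided, Benjamini-Hochberg) on log2(TPM + 1) for genes averaging at least 1 TPM, and the step was tested on simulated data. Genes under this filter were read from the fit without it. Named genes were the 10 members, NUDT21, and from each list the highest gene, the gene with the largest difference and those under an unadjusted p of 0.05, and genes beyond this rule (EXOSC6, KLF2P1, the markers that define a list and single relatives) were chosen after seeing their values. Members and lists were chosen with earlier results of these data known. Alternatives were pseudocounts of 0.1 and 5, no filter or 5 TPM, median-ratio and quantile scaling, limma without trend, a replicate block and leaving out each library.

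Positions and promoters are RefSeq GRCh38.p14, and GC content, lengths and transcript matches (blastn 2.17.0, at least 90% identity over 150 bases) are GENCODE 44, by identifier. Of all identifiers 87.1% had a GC content, of the genes tested 98.6%. Primers are from the oligonucleotide list of the study. Tables were handled with Python 3.11.15 and pandas 2.3.3.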

Additional observations from a re-analysis of the deposited data

How the results depend on the processing

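The count of genes passing an adjusted p of 0.05 in limma, 1, was 0 with a pseudocount of 0.1 or 5, without a filter, with a filter at 5 TPM, after quantile normalization and with the replicate block, and 0 to 1 with a library left out. The count past both 2-fold and an unadjusted p of 0.05, 53, was 96 and 6 with pseudocounts of 0.1 and 5 and 5 with a filter at 5 TPM, and 92 to 120 with a library left out. A larger pseudocount shrinks low genes by construction, and the higher filter leaves 7393 genes. In the alternatives that kept all 4 libraries, no member that was read was called. The lowest limma adjusted p among their single-gene fits was 0.852, for DPPA5 with a pseudocount of 0.1. DPPA3, KLF17 and TBX3 were read only in the fit without a filter, with pseudocounts of 1 and 0.1. The filter at 5 TPM leaves no member, so it gives no value for them. Without a library a group holds 1, which is assumed to vary like the other group.

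Nothing in the labels says that the replicate numbers mark a shared culture or day, so the block was an alternative only. Deviations of same-numbered libraries had a correlation of -0.049 over 12319 genes, which cannot show whether a culture or day was shared. With the block 0 genes passed an adjusted and 673 an unadjusted p of 0.05 in limma. In this balanced layout the block cannot change a difference, so it does not test the signs.

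The ESRRB difference, 0.149, was -0.083 (-0.0828) when KO+OE replicate 1 was left out and 0.38 when the other was. Leaving out a library turned 5 of 8 single genes: NUDT21 to -0.0121 without control replicate 2, KLF2 to -0.227 without control replicate 1 and -0.143 without KO+OE replicate 2, KLF5 to -0.0154 without control replicate 1, and TFCP2L1 to 0.0216 without control replicate 1 and 0.0765 without KO+OE replicate 2, besides ESRRB. TFCP2L1 also turned with median-ratio rescaling (0.00374) and quantile normalization (0.00117). The cause was not tested. At the other end stood 0.0656 for NUDT21, 0.396 for KLF2, 0.122 for KLF5 and -0.0804 for TFCP2L1. ZFP42 ranged from -0.0976 to -0.0317, KLF4 from -0.123 to -0.0902 and DPPA5 from 0.062 to 0.382, with no change of sign. Of 51 other alternatives for single genes 49 kept sign and side of the threshold. The block, the fit without trend and the filters cannot change a difference, so their agreement in sign was fixed beforehand.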

Other observations

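KLF2 and its processed pseudogene KLF2P1, on chromosome 2, were high in opposite libraries, a pair chosen after the values were seen. KLF2 had 0.13 and 0.74 TPM in control against 0.27 and 0.74 TPM in KO+OE, and KLF2P1 had 0.52 and 0.12 TPM in control against 0.40 and 0.10 TPM in KO+OE. Their sum was 0.65, 0.86, 0.67 and 0.84 TPM in the same order, closer together than KLF2 alone. The transcripts matched at 75.7% identity over 1071 bases. Whether reads were shared between them was not tested. Another pseudogene, KLF2P4, lay between 0.19 and 0.42 TPM in all 4 libraries.

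KLF1, an erythroid factor, and KLF12 were higher in both KO+OE than in both control libraries, also chosen after their values were seen. KLF1 had 0.14 and 0.11 TPM in control against 0.37 and 0.30 TPM in KO+OE, and KLF12 had 0.23 and 0.15 TPM in control against 0.50 and 0.32 TPM in KO+OE. Of the genes with a mean from 0.05 to 1 TPM, 13.0% were wholly higher in KO+OE.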
